A study of Mus musculus with 5 samples.

Results

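The genes described here were 41 enzymes, transporters and regulators of glycolysis, gluconeogenesis and glycogen metabolism, measured by bulk RNA-seq in mouse liver tumors with and without induced Prox1. They were taken by gene symbol from the deposited table of normalized counts, which lists 55397 Ensembl genes. All 41 were found, and all passed the filter of a mean of at least 10 normalized counts over the 5 libraries, as did 17105 genes in all. A second Ensembl identifier for Aldoa held 13.9 to 35.3 normalized counts per library and was left out. The members were sorted into 13 liver-type genes, which adult hepatocytes use, and 16 genes typical of other tissues or proliferating cells. The remaining 12 were placed in neither class and are called shared. Some of these, such as Pfkfb2, Eno3, Ldhb and Pck2, also belong to steps with several isozymes. Class counts and medians depend on this sorting.

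Tumors had been started in 8-week-old female C57BL/6N mice by hydrodynamic tail-vein injection, which drives plasmid DNA into hepatocytes. All 5 tumors carried transposon plasmids for Akt and for NICD, the intracellular domain of Notch1, both behind the EF1a promoter, the latter plasmid also encoding the rtTA transactivator, together with Sleeping Beauty transposase. Together these drivers give cholangiocarcinoma (CCA), a tumor that resembles bile duct epithelium. In the 2 Control libraries a doxycycline-responsive plasmid carried GFP alone, and in the 3 Prox1 OE libraries it carried FLAG-tagged mouse Prox1 and GFP. The protocol given for all 5 names doxycycline food (6.25%) from day 21, to induce Prox1 from week 3 to week 4. Tissue was taken after a week of induction or at a humane endpoint, and the labels do not say which applied to which tumor. They also do not tie libraries to mice. The study's text counts its replicates in mice, and p-values measure the spread between these samples. Whole tumor pieces were sequenced, so transcripts of stroma, vessels and blood were included.

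Depth was similar throughout, at 48740863 to 56629477 reads per library. Prox1 had 4153 and 4664 normalized counts in Control replicates 1 and 2, against 48089.8, 11113 and 8231 in Prox1 OE replicates 1, 2 and 3 (log2 fold change 1.90, SE 0.66, limma adjusted p 0.061), so replicate 1 stood far above the others. Prox1 was called by edgeR (adjusted p 0.047), with the replicate number as a block (0.0013), and by limma without Prox1 OE replicate 1 (log2 fold change 1.12, adjusted p 0.0056) or replicate 3 (2.39, adjusted p 0.032). The tumor-driving genes Akt1 and Notch1 were lower in Prox1 OE, with log2 fold changes of -1.05 (limma adjusted p 0.0057) and -1.19 (limma adjusted p 0.0046), and plasmid and endogenous reads were not separated. The label names transformed hepatocytes, and the tumors held both hepatocyte and cholangiocyte transcripts. The summed normalized count of 10 hepatocyte markers was 1283550 to 1880160 in Control and 3725430 to 5321820 in Prox1 OE, with 8 of 10 called higher and 0 lower. That of 10 cholangiocyte markers was 771651 to 842936 in Control and 531247 to 719537 in Prox1 OE, with 0 called higher and 8 lower, against 33.3% of all genes called, 17.1% higher and 16.2% lower. Most of the cholangiocyte sum came from Spp1, which was not called (log2 fold change -0.34, limma adjusted p 0.51), and the median log2 fold change of that list was -1.54. In bulk tissue, fewer cells of a type and less RNA per cell cannot be told apart, and the part of either marker list in the results that follow was not tested.

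Glycolysis breaks glucose down to pyruvate, and gluconeogenesis runs the path in reverse to make glucose, using separate enzymes at the steps that glycolysis cannot reverse. Many steps have several isozymes, encoded by separate genes and used by different tissues. The hepatocyte forms favor glucose storage and release, since the liver keeps blood glucose steady between meals, whereas the forms of other tissues and of many tumors favor rapid use of glucose. Glycogen is the stored polymer of glucose, built by glycogen synthase and broken down by glycogen phosphorylase.

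Most liver-type genes rose, and 9 of the 16 other tissue-type genes fell. Of the 13 liver-type members, 11 were called higher in Prox1 OE, Pfkl was called lower and Pck1 was not called. Of the 16 other tissue-type members, Hk3 was called higher, 9 were called lower and 6 were not called. Of the 12 shared members, Gapdh, Ugp2 and Pdk2 were called higher, Ldhb and Pck2 lower, and 7 were not called. Calls rest on limma with an adjusted p under 0.05 over all 17105 genes, of which 33.3% were called, 17.1% higher and 16.2% lower. The members' counts, 27 of 41 (65.9%) with 15 higher and 12 lower, stand beside that background. The median log2 fold change was 1.58 over the liver-type, -0.81 over the other tissue-type and 0.26 over the shared members, against -0.02 over all genes tested. Groups did not overlap for 33 of the 41 members, and for 63.3% of all genes tested. Scaling by the total count gave 1472 genes higher and 6855 lower, with 12 members higher and 15 lower, and with it the median over all genes tested was -0.45. The values given here are on the deposited scaling and do not contain that shift.

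**Figure D1:**
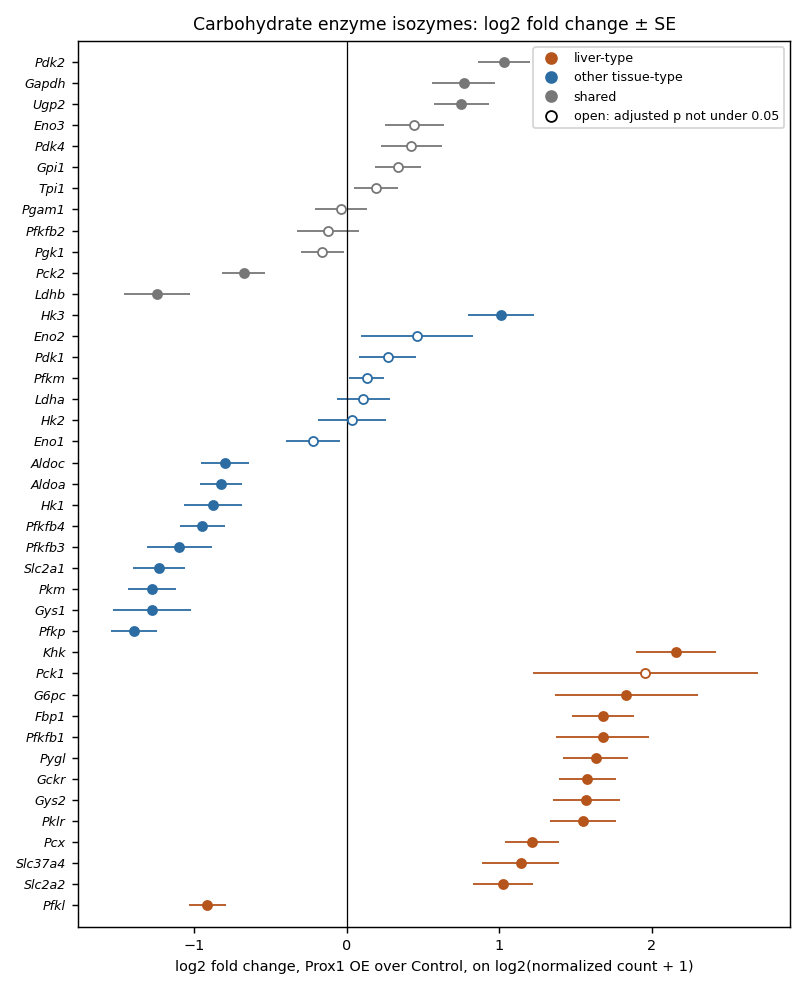
Log2 fold change of each of the 41 members in Prox1 OE over Control, with its standard error as a bar, colored by isozyme class, with open points for members that were not called. The liver-type points lie right of 1 except Pfkl at -0.91, and 9 other tissue-type genes lie between -1.40 and -0.80.

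Counts of calls depended on the Control libraries, of which there are only 2. Without Control replicate 1, 6 members were called higher, all of them liver-type, and 6 lower (Pfkl and 5 other tissue-type members), while calls over all genes went from 5702 to 1158. Without Control replicate 2, 11 members were called higher, 10 of them liver-type, and 6 lower, 4 of them other tissue-type, with 2270 genes called in all. In both fits the lone Control library was assumed to vary like the Prox1 OE libraries. Gckr, Fbp1, Pklr, Khk, Gys2 and Pygl (higher) and Pfkl, Pfkp, Pkm and Slc2a1 (lower) kept their calls in every alternative run. Aldoa and Aldoc lost theirs without Control replicate 2, while Hk1, Hk3, Gapdh, Pck2, G6pc, Pfkfb3, Gys1 and Ugp2 lost theirs without either Control library. Ldhb, Pcx, Pfkfb1, Pfkfb4, Slc2a2, Slc37a4 and Pdk2 lost theirs without Control replicate 1. In the fits that lost them, these 17 members kept their direction, with limma adjusted p of 0.05 to 0.26.

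**Figure D2:**
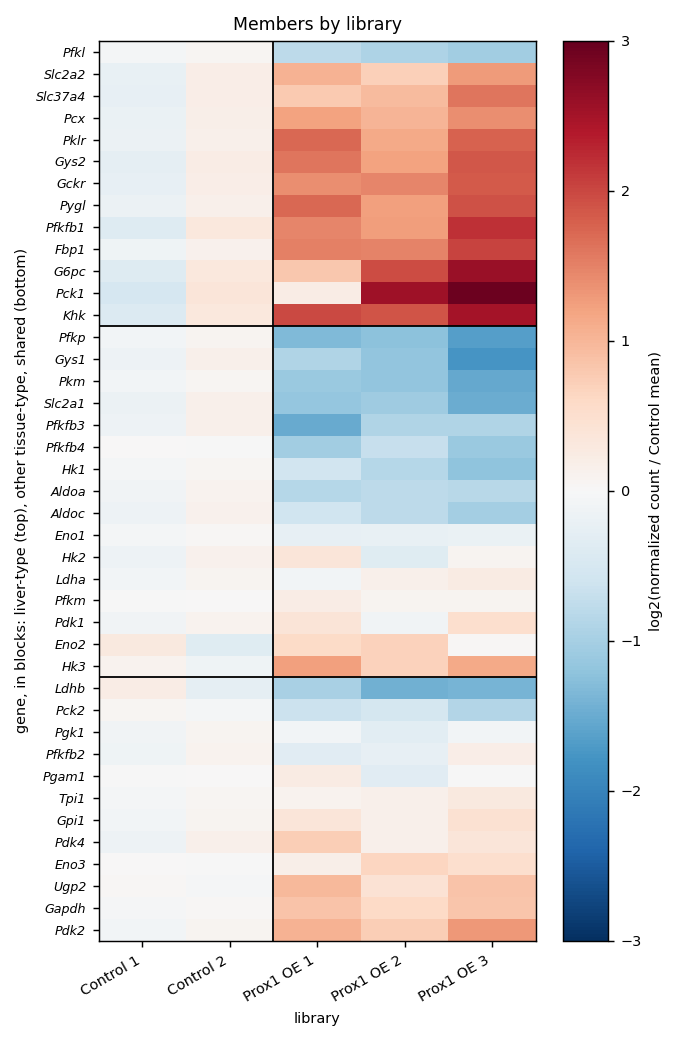
Each member (row) in each library (column), colored by the log2 of its normalized count over the Control mean of that gene, in blocks of liver-type, other tissue-type and shared genes. Both Control columns are pale, and in Prox1 OE replicate 1 the cells for Pck1 and G6pc are paler than in replicates 2 and 3.

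Glucose transporter transcripts shifted from Slc2a1 toward Slc2a2, and glucose entry itself was not measured. Slc2a2 (ENSMUSG00000027690, chr3:28697903-28731359 in mm10), the low-affinity transporter through which hepatocytes take up and release glucose, had 3639.6 and 4877 normalized counts in Control replicates 1 and 2, against 8782, 7007 and 10253 in Prox1 OE replicates 1, 2 and 3. It was higher in 3 of 3 Prox1 OE libraries (log2 fold change 1.03, SE 0.19, limma adjusted p 0.0081). Slc2a1 (ENSMUSG00000028645, chr4:119108711-119137983), the transporter of most other cells, went the other way. It had 3842 and 4851 normalized counts in Control and 1939, 2083 and 1540.4 in Prox1 OE (log2 fold change -1.23, SE 0.17, limma adjusted p 0.0032), with every Prox1 OE value below both Control values. Neither Slc2a3 nor Slc2a4, the transporters of neurons and of muscle and fat, was called, and both stayed at or below 69.5 normalized counts in every library. Per kb of transcript, Slc2a2 made up 35.8% ± 1.02 (SD, n = 2) of the sum of these 4 transporters in Control and 72.0% ± 6.75 (SD, n = 3) in Prox1 OE, while that sum was 1.01-fold the Control sum. 

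Hexokinases trap glucose in the cell as glucose-6-phosphate. Gckr (ENSMUSG00000059434, chr5:31297443-31327314), which encodes a regulatory protein of this step in the liver, had 2705 and 3695 normalized counts in Control and 8380.3, 8833 and 11395 in Prox1 OE, a 2.98-fold rise of the mean (log2 fold change 1.58, SE 0.19, limma adjusted p 0.0026). All 3 Prox1 OE values were above both Control values. Hk1, the hexokinase of most tissues, fell from 1299.7 and 1416 normalized counts to 908, 746 and 591 (log2 fold change -0.88, SE 0.19, limma adjusted p 0.013). Hkdc1, a further hexokinase gene, had 2769.5 and 2902 in Control and 1255, 1198 and 691 in Prox1 OE (log2 fold change -1.48, limma adjusted p 0.0057), a call that was lost without Control replicate 1 (limma adjusted p 0.051). Hk2, the form induced in many cancers, did not separate the groups, at 728 and 888 normalized counts in Control and 1039, 624 and 861 in Prox1 OE (log2 fold change 0.03, SE 0.22, limma adjusted p 0.92).

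Hk3 was the exception among the other tissue-type genes. This hexokinase, found mainly in myeloid cells, had 205 and 175 normalized counts in Control and 448, 306 and 415 in Prox1 OE (log2 fold change 1.01, SE 0.22, limma adjusted p 0.012), and its call was lost with the total count as library size (adjusted p 0.067 by limma). The summed normalized count of 10 leukocyte markers was 16877 to 20847 in Control and 24547 to 40337 in Prox1 OE, with 3 of 10 called higher and 1 lower (40%, against 33.3% of all genes called). Much of that sum came from Lyz2, which was not called (log2 fold change 0.70, limma adjusted p 0.11). The part of leukocytes in the Hk3 result was not tested.

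Phosphofructokinase commits sugar to glycolysis, and 2 of its 3 subunit genes fell. Pfkl (ENSMUSG00000020277, chr10:77986947-78010083), the liver-type subunit, had 9982 and 10717 normalized counts in Control and 6002, 5448 and 5059 in Prox1 OE (log2 fold change -0.91, SE 0.12, limma adjusted p 0.003), and was the liver-type member that was called lower. Pfkp (ENSMUSG00000021196, chr13:6579768-6648777), the platelet-type subunit, showed the largest fall of any member, from 3492 and 3899 normalized counts to 1474, 1581 and 1182 (log2 fold change -1.40, SE 0.15, limma adjusted p 0.0024). Pfkm, the muscle-type subunit, had 1218 and 1230.0 in Control and 1425, 1296 and 1304 in Prox1 OE and was not called (log2 fold change 0.13, SE 0.12, limma adjusted p 0.41). The summed level per kb of the 3 genes in Prox1 OE was 0.558-fold the Control level. Within it, Pfkl made up 67.8% ± 0.105 (SD, n = 2) in Control and 64.6% ± 0.852 (SD, n = 3) in Prox1 OE, whereas Pfkm went from 10.4% ± 0.464 (SD, n = 2) to 20.5% ± 1.04 (SD, n = 3) and Pfkp from 21.8% ± 0.569 (SD, n = 2) to 14.9% ± 1.56 (SD, n = 3). With the length of all annotated exons the shares of Pfkl, Pfkm and Pfkp were 70.7%, 16.7% and 12.6% in Control and 61.9%, 30.2% and 7.91% in Prox1 OE, so the order of Pfkm and Pfkp in Control depended on the length used.

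Fbp1, fructose bisphosphatase, reverses the phosphofructokinase step in gluconeogenesis and moved opposite to it. Fbp1 (ENSMUSG00000069805, chr13:62864753-62888282) had 10667 and 12796 normalized counts in Control and 33256, 32909.5 and 48095 in Prox1 OE, a 3.25-fold rise of the mean (log2 fold change 1.68, SE 0.20, limma adjusted p 0.0026). Its muscle counterpart Fbp2 was at or below 48.5 normalized counts in every library and was not called. The direction of flux at this step is set by the 4 bifunctional Pfkfb enzymes, which make and destroy an allosteric activator of phosphofructokinase. Pfkfb1, the liver form, rose from 414 and 672 normalized counts to 1507, 1294 and 2478 (log2 fold change 1.68, SE 0.31, limma adjusted p 0.0072). Pfkfb3, the inducible form that favors glycolysis, fell from 2495 and 3072 to 968, 1494 and 1493 (log2 fold change -1.10, SE 0.21, limma adjusted p 0.0088). Pfkfb4, first known from testis, fell from 4828 and 4812 to 2358, 2987 and 2219.8 (log2 fold change -0.95, SE 0.15, limma adjusted p 0.0044). Pfkfb2, the heart form, overlapped between groups at 438 and 519 and 380.4, 401 and 551 (log2 fold change -0.12, SE 0.20, limma adjusted p 0.67), and was called lower with the total count as library size (log2 fold change -0.55, limma adjusted p 0.041). Per kb, Pfkfb1 made up 12.9% ± 3.28 (SD, n = 2) of the 4 genes in Control and 47.0% ± 9.93 (SD, n = 3) in Prox1 OE, while Pfkfb4 went from 57.7% ± 5.00 (SD, n = 2) to 34.9% ± 8.73 (SD, n = 3). In Prox1 OE the order of those 2 depended on the length used, since with all annotated exons Pfkfb1 made up 36.4% and Pfkfb4 44.0%.

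**Figure D3:**
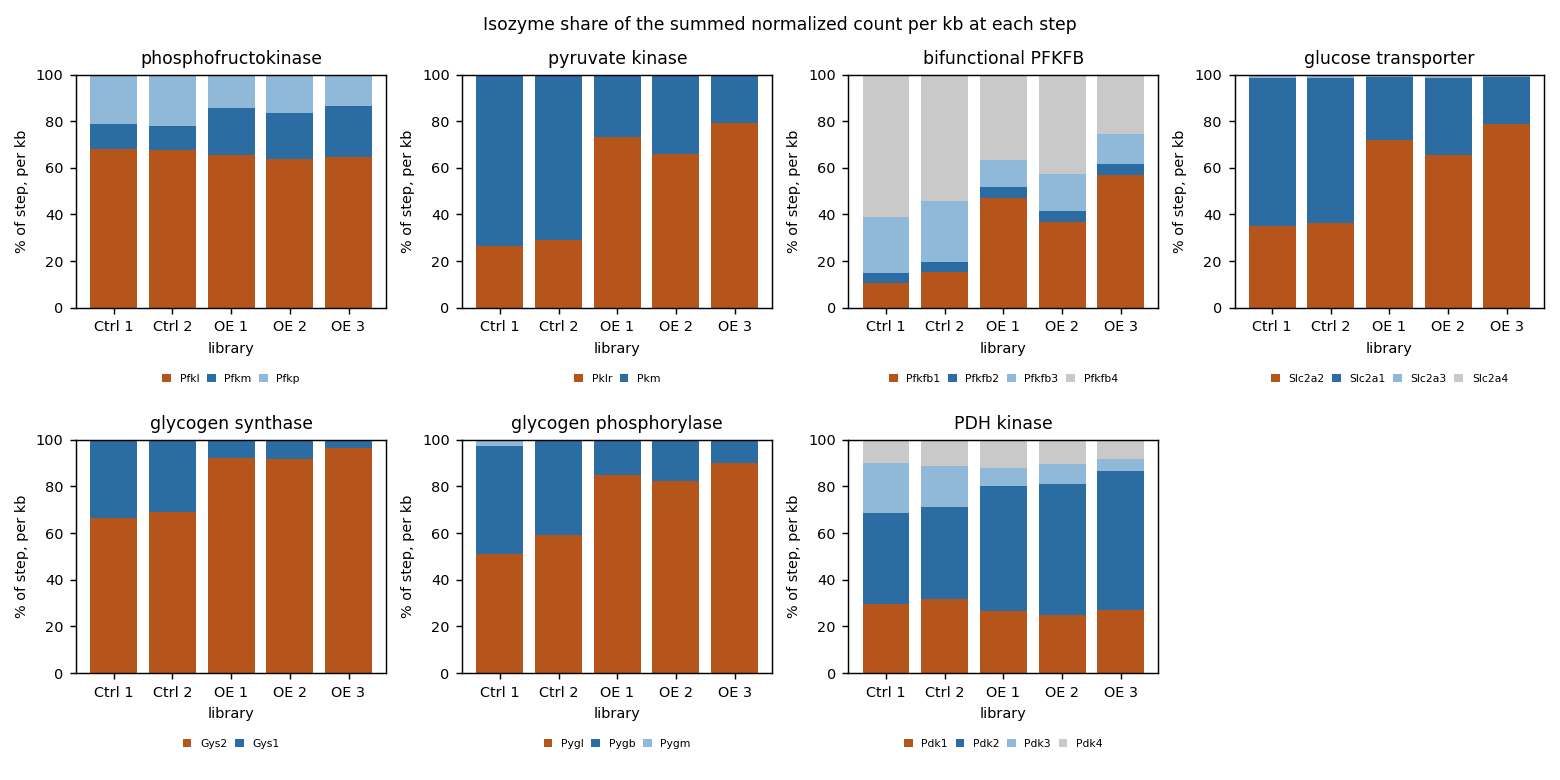
Share of each isozyme in the summed normalized count per kb of principal transcript at 7 steps, as stacked bars from 0 to 100% for the 2 Control (Ctrl) and 3 Prox1 OE (OE) libraries. The liver form (bottom, orange) takes a larger share in every Prox1 OE library than in either Control library at 5 steps. The share of Pfkl does not rise. For the PDH kinases the bottom segment is Pdk1, whose share does not rise either. Pdk2, the next segment, goes from 38.8 and 39.6% in Control to 53.9, 56.4 and 59.6% in Prox1 OE.

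Ketohexokinase, which starts the use of dietary fructose, rose, while the 2 aldolase members, whose enzymes split fructose bisphosphate in glycolysis, fell. Khk (ENSMUSG00000029162, chr5:30921431-30931248), the gene of ketohexokinase, had 6674 and 11024 normalized counts in Control and 34772, 32534 and 49846 in Prox1 OE, a 4.41-fold rise of the mean and the largest log2 fold change among the called members (log2 fold change 2.16, SE 0.26, limma adjusted p 0.0026). The ubiquitous Aldoa fell from 31739 and 36804 normalized counts to 18893, 19767 and 19232 (log2 fold change -0.82, SE 0.13, limma adjusted p 0.0051), and the brain-type Aldoc fell from 4465 and 5393 to 3245, 2861 and 2419 (log2 fold change -0.80, SE 0.16, limma adjusted p 0.0091). For both, every Prox1 OE value was below both Control values. 

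Among the shared steps from glucose-6-phosphate isomerase to enolase, Gapdh was called and the others were not. Gapdh, often used as a reference gene, rose from 86464 and 91663 normalized counts to 162157, 134419 and 159451 (log2 fold change 0.77, SE 0.21, limma adjusted p 0.027). Its call was lost with the total count as library size (log2 fold change 0.34, limma adjusted p 0.13), without either Control library and without Prox1 OE replicate 3. Gpi1, Tpi1, Pgk1 and Pgam1, which carry single steps in nearly all cells, had log2 fold changes of 0.33, 0.19, -0.16 and -0.04 with limma adjusted p of 0.13, 0.34, 0.42 and 0.88, so that none was called. With the total count as library size, however, Pgk1 (log2 fold change -0.59, limma adjusted p 0.0082) and Eno1 (-0.65, limma adjusted p 0.0089) were called lower. Eno1, the ubiquitous enolase, had 96539 and 103049 normalized counts in Control and 84769, 85390.1 and 86816 in Prox1 OE and was not called (log2 fold change -0.22, SE 0.18, limma adjusted p 0.37). It made up over 99% of enolase transcript per kb in every library by this length. Eno3, the muscle enolase, which the liver also expresses, had 251 and 245 in Control and 280.2, 387 and 353 in Prox1 OE without being called (log2 fold change 0.44, SE 0.19, limma adjusted p 0.12), and was called without Prox1 OE replicate 1 (log2 fold change 0.58, limma adjusted p 0.026). Eno2, the neuronal form, was low, at 25.4 to 53.1 normalized counts, and was not called (log2 fold change 0.46, limma adjusted p 0.36). Near-identical copies whose reads could be confused with members (Gapdhs, Eno1b and copies of Pgam1, Gapdh, Aldoa and Pgk1, 9 genes in all) summed to only 73.2 to 88 normalized counts per library. Adpgk, which phosphorylates glucose with ADP, and Bpgm, which makes bisphosphoglycerate in red cells, are related genes that were not called (log2 fold changes 0.00 and 0.18, limma adjusted p 0.98 and 0.28). Pgam2, the muscle mutase, was under the filter and was not tested.

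Pyruvate kinase transcripts shifted from Pkm toward Pklr. Pklr (ENSMUSG00000041237, chr3:89136142-89146784), the liver and red cell form, had 6907 and 8688 normalized counts in Control and 25687, 17184 and 26562 in Prox1 OE (log2 fold change 1.55, SE 0.22, limma adjusted p 0.0033). Pkm (ENSMUSG00000032294, chr9:59656368-59679375), which encodes the muscle form and the splice form of proliferating cells and whose splice forms gene counts do not separate, had 16178 and 17864 in Control and 7912, 7466 and 5835 in Prox1 OE (log2 fold change -1.28, SE 0.16, limma adjusted p 0.0027). For Pklr all 3 Prox1 OE values exceeded both Control values, and for Pkm all 3 were below them. Per kb of principal transcript, Pklr made up 27.7% ± 1.84 (SD, n = 2) of the pair in Control and 72.7% ± 6.69 (SD, n = 3) in Prox1 OE, and the sum of the pair in Prox1 OE was 1.12-fold that in Control. With the length of all annotated exons the shares of Pklr were 41.3% and 83.0%. 

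Past pyruvate, Ldhb fell and Pdk2 rose, while Ldha, Pdk1 and Pdk4 were not called. Ldha, the lactate dehydrogenase that favors lactate formation, did not separate the groups, at 44740.2 and 49531 normalized counts in Control and 44368, 52599 and 56044 in Prox1 OE (log2 fold change 0.11, SE 0.17, limma adjusted p 0.66). Ldhb, which favors the reverse reaction, fell from 1214 and 857 to 532, 382 and 391 (log2 fold change -1.24, SE 0.22, limma adjusted p 0.0061), and Ldha made up 97.1% ± 0.888 (SD, n = 2) of the pair per kb in Control and 98.8% ± 0.371 (SD, n = 3) in Prox1 OE. Ldhd, the dehydrogenase for the other mirror form of lactate, rose, at 2685 and 3170.2 and 7562, 6950.1 and 8486 (log2 fold change 1.39, SE 0.14, limma adjusted p 0.0022). The Pdk kinases switch off pyruvate dehydrogenase and so keep pyruvate from oxidation. Pdk2, the broad form abundant in liver, rose from 1744 and 1928 normalized counts to 3809, 3077 and 4521 (log2 fold change 1.03, SE 0.17, limma adjusted p 0.0052). Pdk1, induced by low oxygen, and Pdk4, induced by fasting, were not called, with log2 fold changes of 0.27 (limma adjusted p 0.3) and 0.42 (limma adjusted p 0.14). Pdk1 values were 3095 and 3559 in Control and 4323, 3114 and 4751 in Prox1 OE, and Pdk4 values 696 and 857 and 1303, 861 and 991. Pdk3 was called lower, with a change of -0.98 on the log2 scale (limma adjusted p 0.0093), a call lost without either Control library (adjusted p up to 0.11).

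Among the gluconeogenic enzymes Pcx rose and Pck2 fell, while Pck1 was uneven between libraries and was not called. Pcx (ENSMUSG00000024892, chr19:4510472-4621752), pyruvate carboxylase, which opens the path from pyruvate in the mitochondrion, had 10589 and 13831 normalized counts in Control and 28055, 24612 and 32153 in Prox1 OE (log2 fold change 1.22, SE 0.18, limma adjusted p 0.0036). Pck1 (ENSMUSG00000027513, chr2:173153048-173159273), the cytosolic phosphoenolpyruvate carboxykinase that responds to fasting hormones, had 6870.0 and 12639 normalized counts in Control replicates 1 and 2, against 11296, 56549 and 74609 in Prox1 OE replicates 1, 2 and 3. Replicate 1 lay between the Control values, while replicates 2 and 3 stood far above them. The limma test did not call it (log2 fold change 1.96, SE 0.74, limma adjusted p 0.078). Over the alternatives its adjusted p ran from 0.0033 to 0.34, with calls by edgeR (0.048), by DESeq2 (0.044), with the replicate number as a block (log2 fold change 1.44, adjusted p 0.0033) and by limma without Prox1 OE replicate 1 (log2 fold change 2.80, adjusted p 0.0037). Pck2, the mitochondrial carboxykinase, fell from 2226 and 2037 to 1369, 1486 and 1162 (log2 fold change -0.68, SE 0.14, limma adjusted p 0.011), and Pck1 made up 87.9% ± 5.11 (SD, n = 2) of the pair per kb in Control and 97.0% ± 3.09 (SD, n = 3) in Prox1 OE.

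The last step, release of free glucose, needs G6pc, the catalytic unit of glucose-6-phosphatase, and Slc37a4, which carries its substrate into the endoplasmic reticulum. G6pc (ENSMUSG00000078650, chr11:101367561-101377903) had 2582 and 4199 normalized counts in Control and 5975, 13209 and 20562 in Prox1 OE (log2 fold change 1.84, SE 0.47, limma adjusted p 0.023). It was higher in 3 of 3 Prox1 OE libraries, and again replicate 1 was the lowest. Its call was lost by limma without the trend (adjusted p 0.069), without either Control library (0.16 and 0.055) and without Prox1 OE replicate 2 (0.085). Slc37a4 rose from 2457 and 3364 to 5050.1, 5665 and 8906 (log2 fold change 1.14, SE 0.25, limma adjusted p 0.014). G6pc3, the broadly expressed phosphatase, was called lower, with a change of -0.42 on the log2 scale (limma adjusted p 0.033).

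Pck1 and G6pc stood apart from the other members in Prox1 OE replicate 1. There Pck1 was 0.172 and G6pc 0.354 times the mean of the other 2 Prox1 OE libraries. Of the 40 members with a mean of at least 100 normalized counts, these were the 2 under 0.5 times, 0 were above 2 times, and the median was 1.04. The same shares over all genes were not counted, and some genes outside the members had the same shape. In the same library Prox1 itself was highest. Got1, the transaminase that moves aspartate for gluconeogenesis, and Klf15, a factor that raises amino acid use for glucose production, had the same shape, at 0.362 and 0.397 times the mean of the other 2. Got1 had 1472 and 2122 normalized counts in Control and 2511, 5738 and 8132 in Prox1 OE (log2 fold change 1.47, limma adjusted p 0.039). Klf15 had 1273 and 1494 and 2188, 4651 and 6385 (log2 fold change 1.54, limma adjusted p 0.023). Both lost their calls by limma without the trend, without either Control library and without Prox1 OE replicate 2, and Got1 also without the filter and without Prox1 OE replicate 3, with adjusted p up to 0.22 for Got1 and 0.14 for Klf15.

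**Figure D4:**
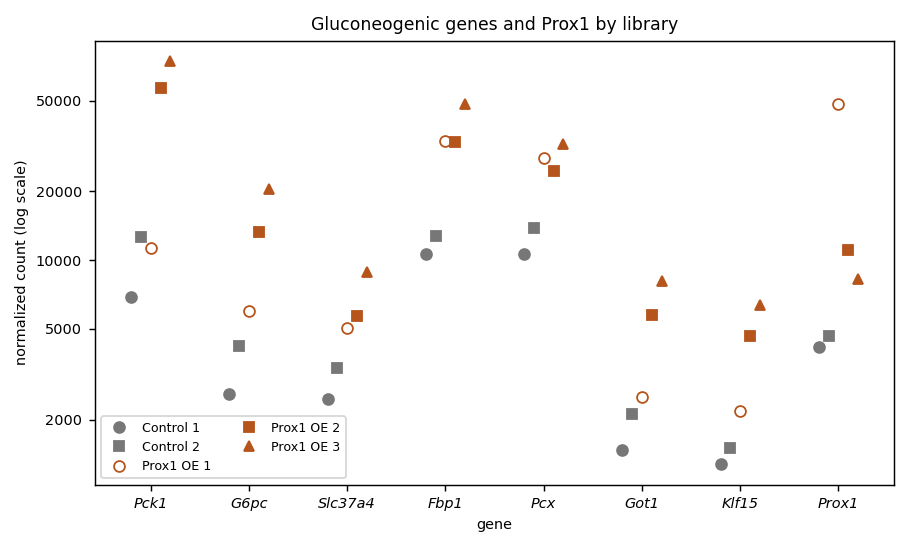
Normalized counts, on a log axis, of 7 gluconeogenesis genes and Prox1 in each library, with gray for Control and orange for Prox1 OE, an open circle for Prox1 OE replicate 1. The open circle falls between the Control points for Pck1 at 11296, close above them for G6pc, Got1 and Klf15, beside the other orange points for Fbp1 and Pcx, and far above all points for Prox1 at 48090.

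Promoter sequences of 40 of the 41 members were found in RefSeq (GRCm38.p6, the sequence of mm10), as 64 windows from 250 bases before to 50 bases after an annotated start. Gys2 had no window. Short letter strings of known sites were counted on both strands. The part of the HNF1 site spelled GTTAAT stood in 5 of 19 windows of liver-type members (26.3%), those of Pck1, Khk, Gckr, G6pc and Pfkfb1, in 0 of 29 windows of other tissue-type members, in 0 of 16 of shared members and in 7.10% of all 32851 windows. The ACGTG core of the hypoxia response element, which also lies inside the E-box CACGTG, stood in 15.8% of liver-type, 44.8% of other tissue-type and 43.8% of shared windows, against 19.6% of all windows. The GC box GGGCGG stood in 50% of member windows and 35.7% of all. The CRE letters TGACGT stood in 10.9% of member windows and 7.51% of all, the E-box in 10.9% and 7.15%, and the HNF4 letters CAAAGT in 14.1% and 14.4%. By class, the HNF4 letters stood in 15.8% of liver-type, 6.90% of other tissue-type and 25% of shared windows, the CRE letters in 15.8%, 13.8% and 0%, the E-box in 10.5%, 10.3% and 12.5%, and the GC box in 47.4%, 51.7% and 50%, so unlike the HNF1 letters none of these was found in the liver-type class alone. Windows of the same gene could overlap and were counted separately, as for Slc37a4 with the CRE letters and Aldoa with the ACGTG core. A match is a description of these letters and not a measured site. The windows of the 2 gluconeogenic genes that stood apart in Prox1 OE replicate 1 are shown first, then those of 2 genes that fell, for contrast, all on the plus strand and 5′ to 3′. Capitals mark the letters searched for, on either strand. G6pc lies at chr11:101367466-101367765, Pck1 at chr2:173152823-173153122, Pkm (1 of its 2 windows) at chr9:59656326-59656625 and Slc2a1 at chr4:119108495-119108794.
G6pc: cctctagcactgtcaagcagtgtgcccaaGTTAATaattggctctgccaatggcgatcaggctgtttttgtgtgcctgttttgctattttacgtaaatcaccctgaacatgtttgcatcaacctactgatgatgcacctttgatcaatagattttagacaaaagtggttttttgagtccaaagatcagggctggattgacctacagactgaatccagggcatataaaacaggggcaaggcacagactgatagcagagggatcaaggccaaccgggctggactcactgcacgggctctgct
Pck1: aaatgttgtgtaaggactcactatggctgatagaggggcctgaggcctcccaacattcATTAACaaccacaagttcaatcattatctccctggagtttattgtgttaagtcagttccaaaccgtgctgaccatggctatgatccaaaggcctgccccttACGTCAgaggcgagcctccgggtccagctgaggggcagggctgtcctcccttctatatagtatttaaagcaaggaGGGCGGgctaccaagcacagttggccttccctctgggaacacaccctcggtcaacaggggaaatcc
Pkm: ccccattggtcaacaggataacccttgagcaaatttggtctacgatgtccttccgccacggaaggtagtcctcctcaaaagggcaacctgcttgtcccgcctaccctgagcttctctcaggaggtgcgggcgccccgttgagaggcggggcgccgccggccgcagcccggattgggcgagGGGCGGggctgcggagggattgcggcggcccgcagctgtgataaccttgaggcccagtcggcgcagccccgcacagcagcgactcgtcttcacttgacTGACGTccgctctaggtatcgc
Slc2a1: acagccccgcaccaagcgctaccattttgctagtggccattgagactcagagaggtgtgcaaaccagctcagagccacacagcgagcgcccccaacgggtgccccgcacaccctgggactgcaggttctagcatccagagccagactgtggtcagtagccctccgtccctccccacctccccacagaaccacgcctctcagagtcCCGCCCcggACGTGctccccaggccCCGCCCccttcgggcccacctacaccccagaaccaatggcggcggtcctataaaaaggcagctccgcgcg
In G6pc the HNF1 letters began 221 bases before the start. In Pck1 they began 192 bases before it, with the CRE letters at 91 and a GC box at 16 bases before it. Slc2a1 had GC boxes at 45 and 20 bases and the ACGTG core at 36 bases before its start, and Pkm had a GC box at 70 bases before its start and the CRE letters 29 bases after it.

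In glycogen metabolism the liver isozymes, already the larger share per kb in Control by principal transcript length, took a larger share in Prox1 OE. Gys2 (ENSMUSG00000030244, chr6:142422613-142473109), the liver glycogen synthase, rose from 1418 and 1985 normalized counts to 5181, 3903 and 6147 (log2 fold change 1.57, SE 0.22, limma adjusted p 0.0033). Gys1, the muscle form, fell from 996 and 1225 to 594, 486 and 325 (log2 fold change -1.28, SE 0.26, limma adjusted p 0.0096). Gys2 made up 67.8% ± 2.00 (SD, n = 2) of the pair per kb in Control and 93.5% ± 2.48 (SD, n = 3) in Prox1 OE. Pygl (ENSMUSG00000021069, chr12:70190811-70231488), the liver glycogen phosphorylase, rose from 6076 and 7689 normalized counts to 22822, 16259 and 25713 (log2 fold change 1.63, SE 0.21, limma adjusted p 0.0029). Pygb, the brain form and no member, was lower at 7541 and 7247 and 5356, 4657 and 3754 (log2 fold change -0.70, SE 0.16, limma adjusted p 0.015), and the muscle form Pygm was not called. The Pygb call was lost without either Control library (limma adjusted p up to 0.12). Pygl made up 55.2% ± 5.58 (SD, n = 2) of the 3 phosphorylases per kb in Control and 85.8% ± 3.91 (SD, n = 3) in Prox1 OE. With the length of all annotated exons these shares were 38.3% and 75.4%, and Pygb at 59.2% was then the most abundant in Control, so the order in Control depended on the length used. Ugp2, which makes the activated glucose used for glycogen, rose from 12306 and 11755 to 23445, 16144 and 21930.5 (log2 fold change 0.75, SE 0.18, limma adjusted p 0.018), a call that was lost with the total count as library size (adjusted p 0.15 by limma) and without either Control library. 

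Ratios within a library do not depend on its scaling. For 7 pairs the log2 ratio per kb was compared between groups by an exact permutation test over libraries, two-sided, which with 2 against 3 libraries cannot give a p below 0.1. The Pklr to Pkm ratio was -1.48 and -1.29 in Control and 1.44, 0.95 and 1.93 in Prox1 OE, so that the more abundant form changed. The Slc2a2 to Slc2a1 ratio crossed 0 in the same way, from -0.85 and -0.76 to 1.41, 0.98 and 1.96, as did Pfkfb1 to Pfkfb3, from -1.17 and -0.78 to 2.05, 1.21 and 2.14. Pfkfb3 was not the main other form of that set, since Pfkfb4 had the largest share in Control and in Prox1 OE replicate 2 still exceeded Pfkfb1, at 42.5% against 37.0% of the 4 genes. Gys2 to Gys1 was above 0 in every library, at 0.98 and 1.17 in Control and 3.59, 3.47 and 4.71 in Prox1 OE. Fbp1 to Pfkp, a minor subunit of the opposing enzyme and the member with the largest fall, was at 3.10 and 3.20 and 5.98, 5.87 and 6.83. The differences of group means were 2.83, 2.26, 2.78, 2.85 and 3.08 on the log2 scale, and 0.66 for Eno3 to Eno1, each with an exact p of 0.1 (0.117 adjusted over the 7 ratios). In each of these pairs the 2 genes already separated the groups in opposite directions. This p therefore followed from the values given above and adds no support. G6pc to Hk2 differed by 1.80 (exact p 0.2, adjusted 0.2), with 3.02 and 3.43 in Control and 3.71, 5.59 and 5.77 in Prox1 OE.

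**Figure D5:**
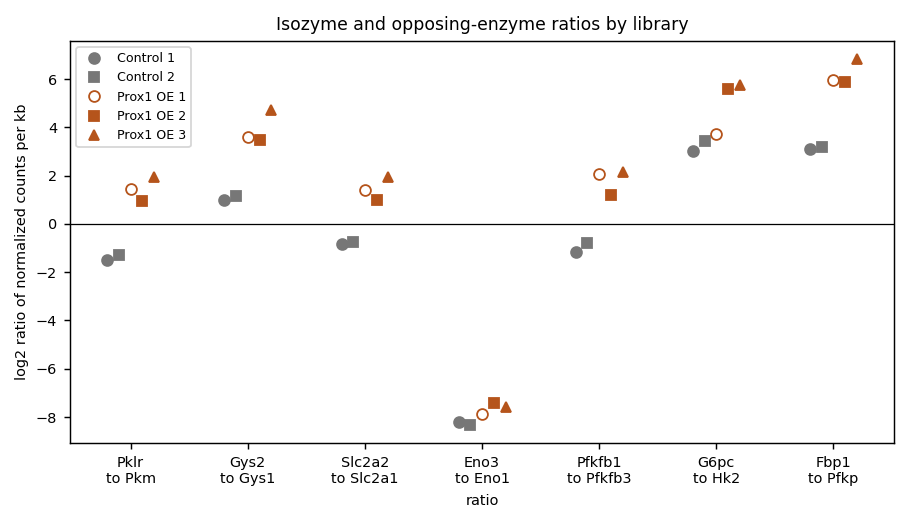
Log2 ratio of normalized counts per kb for 7 gene pairs in each library, with gray for Control, orange for Prox1 OE and an open circle for Prox1 OE replicate 1, and a line at 0 where both genes are equal. For Pklr to Pkm, Slc2a2 to Slc2a1 and Pfkfb1 to Pfkfb3 both Control points lie below 0 and all 3 Prox1 OE points above it.

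The pathways that feed these steps were read from lists beside the members. Among all genes tested 33.3% were called, 17.1% higher and 16.2% lower, and each list's count stands beside that background. Of 12 genes of pyruvate and lactate handling, 8 were called higher and 2 lower. Mpc1, a subunit of the carrier that brings pyruvate into mitochondria, had a change of 1.03 on the log2 scale (limma adjusted p 0.0044), and Pdp2, a phosphatase that switches pyruvate dehydrogenase on, 0.94 (limma adjusted p 0.0044). Slc16a7, a carrier of pyruvate and lactate, had 0.87 (limma adjusted p 0.0045). Slc16a3, the exporter of lactate from highly glycolytic cells, fell from 2636 and 3161 normalized counts to 435, 299.7 and 209 (log2 fold change -3.26, SE 0.28, limma adjusted p 0.0018), and Pdp1 had a change of -0.66 on the log2 scale (limma adjusted p 0.025). The list's median was 0.63. Mpc1, Pdp2 and Slc16a7 lost their calls without Control replicate 1 (limma adjusted p 0.058, 0.062 and 0.062), and Pdp1 without either Control library and without Prox1 OE replicate 2 or 3 (adjusted p up to 0.22).

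Fructose, galactose and mannose genes were called higher in 7 of 10 cases and lower in 0, with a median log2 fold change of 0.86. Tkfc, the triose kinase that acts after Khk in fructose use, rose from 9170.4 and 14439.8 to 42751, 35159.7 and 45237 (log2 fold change 1.83, SE 0.22, limma adjusted p 0.0026). Sord, which makes fructose from sorbitol, and Galm, a mutarotase of galactose use, had log2 fold changes of 1.71 and 1.02 (limma adjusted p 0.0031 and 0.0041). Of 8 genes of glycerol use and the redox shuttles, 7 were called higher and 0 lower, with a median of 1.05. Among them Aqp9, the channel by which hepatocytes take up glycerol, and Gpd1, which links glycerol to glycolysis, had 1.31 and 1.24 (limma adjusted p 0.0048 and 0.0026). The Aqp9 call was lost without Control replicate 1 (limma adjusted p 0.051).

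Pentose phosphate genes were called higher in 3 and lower in 1 of 8 cases (50% called, against 33.3% of all genes), with a median of 0.15. Pgd, Pgls and Taldo1 had log2 fold changes of 0.86, 0.54 and 0.45, and G6pdx, the entry enzyme, -0.54, with limma adjusted p of 0.0055, 0.041, 0.033 and 0.029. Pgls lost its call in 7 and Taldo1 in 8 of 16 alternatives, among them the total count as library size (log2 fold changes 0.11 and 0.019, limma adjusted p 0.59 and 0.91), and G6pdx in 6 of 16 (adjusted p up to 0.19). All 3 lost it without either Control library and without Prox1 OE replicate 2 or 3, and Pgd lost its call without Control replicate 1 (adjusted p 0.071). Of 18 further glycogen genes, 5 were called higher and 1 lower (33.3%, the share called among all genes), with a median of 0.37. Gbe1, the branching enzyme, had 1.10, and Ppp1r3c and Ppp1r3b, which bring a phosphatase to glycogen, had 0.83 and 0.80, with limma adjusted p of 0.013, 0.041 and 0.043. Gsk3b, a kinase that inhibits glycogen synthase, had -0.51 (limma adjusted p 0.035). Without either Control library all 4 lost their calls, and Ppp1r3c, Ppp1r3b and Gsk3b did so in 6 or 7 of 16 alternatives, with adjusted p up to 0.2, 0.27 and 0.19. 

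Of 17 regulators of glucose metabolism, 6 were called higher and 3 lower, with a median of 0.19. Gcgr, the receptor for the fasting hormone glucagon, rose from 2305 and 3445 normalized counts to 7957, 10394 and 12599 (log2 fold change 1.85, SE 0.23, limma adjusted p 0.0028). Mlxipl, which encodes the glucose-sensing factor ChREBP, a known activator of Pklr, rose from 1581 and 2173 to 4022, 5099.9 and 7369 (log2 fold change 1.52, SE 0.26, limma adjusted p 0.0055). Its paralog Mlxip was lower, with -0.85 (limma adjusted p 0.003), as were Sik1, a kinase that restrains gluconeogenic transcription, at -0.75, and Foxo3, a forkhead factor, at -0.45 (limma adjusted p 0.0044 and 0.029). Mlxipl and Sik1 lost their calls without Control replicate 1 (limma adjusted p 0.06 and 0.064), and Foxo3 in 5 of 16 alternatives, including without either Control library and without Prox1 OE replicate 2 (adjusted p up to 0.23). 

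Genes that low oxygen induces through HIF were read from a list without members. Of its 12 genes, 0 were called higher, 8 lower and 4 were not called (66.7% called, against 33.3% of all genes, 16.2% lower). Log2 fold changes ran from -3.31 to 0.04, with a median of -0.81. Members that low oxygen induces, such as Pdk1 (log2 fold change 0.27, not called), were left out of this count. Car9, a carbonic anhydrase of the cell surface, had 277 and 849 normalized counts in Control and 64.4, 43.7 and 39.3 in Prox1 OE (log2 fold change -3.31, SE 0.47, limma adjusted p 0.0034). Its log2 fold change was -4.12 without Control replicate 1 and -2.50 without Control replicate 2, and it stayed called in both. Adm and Egln3, a peptide hormone and a prolyl hydroxylase, had log2 fold changes of -1.68 and -1.48 (limma adjusted p 0.0071 and 0.0024). The Adm call was lost without Control replicate 2 (limma adjusted p 0.063). Among 10 proliferation genes, 0 were called higher and 9 lower, and their summed normalized count was 44469 to 63149.9 in Control and 25704 to 33325 in Prox1 OE. The part of oxygen supply and of proliferation in the members' values was not tested.

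Markers of the remaining cell types were called in 25% (endothelial), 60% (stellate cells and fibroblasts) and 20% (erythroid) of cases, against 33.3% of all genes. Of 8 endothelial markers 2 were called higher and 0 lower, with sums of 9736 to 12276 in Control and 11325 to 16143 in Prox1 OE. Of 10 markers of stellate cells and fibroblasts 1 was called higher and 5 lower, with sums of 154796 to 160688 and 87025 to 101594. Of 5 erythroid markers 1 was called higher and 0 lower, with sums of 4937 to 7492 and 8407 to 17912. The 5 skeletal muscle markers summed to at most 171 normalized counts in any library, with Myh4 at 0 in all, and the 3 that were tested, Mylpf, Acta1 and Ckm, had log2 fold changes of 0.73, -0.29 and -2.79 (limma adjusted p 0.07, 0.72 and 0.15). The part of these cells in the results was not tested.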

How the data were processed

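RNA was sequenced from 5 dissected Akt/Notch liver tumors (2 Control, 3 Prox1 OE). Per the labels, the authors made libraries with a dUTP protocol, read pairs of 100 bases, and processed them with STAR (mm10) and DESeq2. The counting tool was not given in the sources used here. The deposited signal is the normalized count, reads divided by a DESeq2 size factor, so that 1 read was worth 0.822 to 1.18 normalized counts and whole reads (within 0.1) were recovered for 100% of values. Totals were 48740863 to 56629477 reads, and 3 reads, the limit that a count of 0 allows, were 2.46 to 3.54 normalized counts, for counting error only. The authors' table of their own comparison, with fold changes and p-values, was not used. All per-sample columns were assigned to a sample (0 left over).

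Groups came from the sample titles. limma 3.58.1 (R 4.3.3, lmFit and eBayes with trend, no covariate) was run two-sided on log2(normalized count + 1) for genes with a mean of at least 10, p-values being adjusted by Benjamini-Hochberg over those genes and called under 0.05. Fold changes are on that scale, which understates low genes. The study's own test, DESeq2, is among the alternatives. Levels per kb used the principal transcript of GENCODE M21 (GRCm38), which matched 55137 identifiers (99.5%). Alternatives were TMM, upper-quartile and total count scaling, pseudocounts of 0.1 and 10, no filter or a mean of at least 50, limma without trend, edgeR 4.0.16 and DESeq2 1.42.0 on recovered reads, a replicate block, each library left out, and, added after seeing the data, exon length. The procedure was tested on simulated counts.

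Members, classes and lists were chosen with earlier results of these data known, and the isozyme sets behind the shares after values were seen. All 41 members are accounted for. Some genes of the related lists are not reported here. From each related list, at most 3 called genes in each direction were named, those with the largest change and a mean of at least 100 normalized counts, besides sister isozymes of the members and Prox1, Akt1 and Notch1.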

Additional observations from a re-analysis of the deposited data

How the results depend on the processing

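Of 655 member values under the alternatives, 605 kept their direction and side of the threshold, 31 lost their call, 8 gained it and 11 changed sign, all 11 in members that were not called. Of the 27 called members, 10 kept their call in every alternative run. For 32 other named genes, 438 of 512 values kept both and 74 lost their call, most often without a Control library, while Ldhd, Slc16a3, Tkfc, Sord, Galm, Gpd1, Gcgr, Mlxip, Car9 and Egln3 lost it in no alternative run. The cause was not tested where it is not named.

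Scaling by the total count moved the median of all genes from -0.02 to -0.45 on the log2 scale. Genes called higher over all genes were then 1472 and genes called lower 6855, and Hk2 (-0.40), Gpi1 (-0.10), Pfkm (-0.30), Tpi1 (-0.24), Ldha (-0.32), Pdk1 (-0.16) and Pdk4 (-0.0073) turned negative, none of them past the threshold, while Pgk1 (-0.59), Eno1 (-0.65) and Pfkfb2 (-0.55) were called lower.

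When each library was left out in turn, 1158 to 7491 genes were called, 681 to 3738 of them higher and 477 to 3753 lower, with 6 to 17 members higher and 6 to 12 lower. The smallest counts came without a Control library, and 1740 genes were lower without Prox1 OE replicate 2. Hk2 then ran from -0.13 to 0.23 (-0.11 without Control replicate 1), Pgam1 from -0.18 to 0.11 and Pfkfb2 from -0.29 to 0.00061.

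Replicate numbers are shared by 2 pairs of libraries, and no label ties them to a mouse or day. Deviations from the group means correlated at 0.14 and 0.02 over genes between the libraries of a pair. A fit with the replicate block leaves out Prox1 OE replicate 3, and in it 16 members were called higher, Pck1 among them (1.44), and 12 lower, with 5246 genes called in all.

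The 7 ratios kept their direction with other pseudocounts and with each library left out. Limits are few libraries, with 2 in Control, and depth only for genes near the floor, which no member approached.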

Other observations

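Other genes also sat low in Prox1 OE replicate 1 beside replicates 2 and 3. They were chosen after their values were seen. Ppp1r3g, which brings a phosphatase to glycogen after feeding, had 32.0 and 77.1 normalized counts in Control and 49.1, 719 and 337 in Prox1 OE replicates 1, 2 and 3. It was not called (log2 fold change 2.18, SE 1.01, limma adjusted p 0.13). Cebpb, a factor of the fasting and acute phase response, had 1659.6 and 1781 and 1678, 3772 and 4467 and was not called either (log2 fold change 0.83, SE 0.37, limma adjusted p 0.13). Tat, the tyrosine transaminase that glucocorticoids induce, had 3744 and 5723 and 12552, 37573 and 59699 and was called higher (log2 fold change 2.72, SE 0.58, limma adjusted p 0.012). In Prox1 OE replicate 1 Ppp1r3g and Cebpb lay within or near the Control values, while Tat lay above them.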
